A study of Mus musculus with 22 samples.

Results

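Klf9 and 9 other genes of the Krüppel-like factor (KLF) family, Klf2, Klf3, Klf4, Klf5, Klf6, Klf10, Klf11, Klf13 and Klf15, were followed in the striatum and white adipose tissue (WAT) of mice given thyroid hormone (TH). They were chosen by symbol, as 10 of the 55341 rows of the striatum count table and 10 of the 47643 rows of the WAT table. All animals were described as wild-type male C57BL/6J mice of 8 weeks. The control libraries were labelled as hypothyroid after 2 weeks of propylthiouracil (PTU, a drug that blocks the synthesis of TH), with 4 libraries in WAT and 2 in striatum (replicates 3 and 6). The other libraries were labelled only with TH and the time since its administration, 6 h or 24 h in WAT and 12 h or 24 h in striatum, with 4 libraries each. The study's overview lists PTU in the food for WAT, no procedure for striatum, and a single injection of T3 and T4 for both, so whether the striatum TH animals had PTU is not settled by these sources. RNA was extracted from bulk tissue, where fewer cells of a type and less RNA per cell cannot be told apart.

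KLF proteins carry zinc fingers at the C terminus that bind CACCC boxes and GC-rich sites, and they differ in the N-terminal part that recruits cofactors. KLF9, KLF10, KLF11 and KLF13 recruit the SIN3 corepressor, KLF3 recruits the CtBP corepressor, KLF2, KLF4, KLF5 and KLF6 are mostly known as activators, and KLF15 is known for its part in amino acid and glucose metabolism. Klf9 is a classical TH target gene in brain, where TH acts through nuclear receptors that bind repeats of AGGTCA. In fat, several KLFs are known as regulators of adipocyte differentiation.

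The promoters of the 4 members that TH changed most in WAT are shown because these genes moved in different directions. Each sequence runs 5′ to 3′ on the strand of the gene, from 250 bases before to 50 bases after the start that RefSeq gives (GRCm38.p6), and capitals mark CACCC boxes (CACCC) and GC boxes (GGGCGG) on either strand, which overlap in places.
Klf9: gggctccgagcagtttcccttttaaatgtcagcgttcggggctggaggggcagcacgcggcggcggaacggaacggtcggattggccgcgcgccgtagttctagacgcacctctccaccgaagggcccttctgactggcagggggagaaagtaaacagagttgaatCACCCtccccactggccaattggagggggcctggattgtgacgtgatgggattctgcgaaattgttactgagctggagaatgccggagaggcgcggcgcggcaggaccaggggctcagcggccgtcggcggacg
Klf13: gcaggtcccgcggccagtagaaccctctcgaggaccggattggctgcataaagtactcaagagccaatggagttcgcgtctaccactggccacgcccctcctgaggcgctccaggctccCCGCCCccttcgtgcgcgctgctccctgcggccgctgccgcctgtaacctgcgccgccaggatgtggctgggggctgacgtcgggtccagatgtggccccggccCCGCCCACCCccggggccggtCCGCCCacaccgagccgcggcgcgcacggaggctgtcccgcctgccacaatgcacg
Klf11: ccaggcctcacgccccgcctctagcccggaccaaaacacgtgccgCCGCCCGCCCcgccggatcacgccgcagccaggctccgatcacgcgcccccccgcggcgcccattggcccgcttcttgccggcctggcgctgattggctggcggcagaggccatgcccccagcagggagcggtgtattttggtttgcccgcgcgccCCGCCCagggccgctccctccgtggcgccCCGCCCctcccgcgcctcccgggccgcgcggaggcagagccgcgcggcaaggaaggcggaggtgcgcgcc
Klf15: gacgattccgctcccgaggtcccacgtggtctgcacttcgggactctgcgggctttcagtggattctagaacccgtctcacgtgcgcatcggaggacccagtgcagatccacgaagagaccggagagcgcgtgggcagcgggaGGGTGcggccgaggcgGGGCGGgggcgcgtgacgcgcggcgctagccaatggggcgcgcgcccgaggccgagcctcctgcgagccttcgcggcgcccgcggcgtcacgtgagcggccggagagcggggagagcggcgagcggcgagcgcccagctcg
The Klf9 sequence (chr19:23140976-23141275, plus strand) held 1 CACCC box, 84 bases before the start, and no GC box. The Klf13 sequence (chr7:63938866-63939165, minus strand) held 3 GC boxes and 1 CACCC box, the Klf11 sequence (chr12:24651121-24651420, plus strand) held 4 GC boxes, and the Klf15 sequence (chr6:90462326-90462625, plus strand) held 1 of each. Among all 32851 promoters of the RefSeq table, 57.5% held a CACCC box and 35.7% a GC box. AGGTCA occurred on either strand in 16.3% of all promoters and its direct repeat with a 4-base spacer in 0.0152%. Neither was found in these 4 or in the promoters of Klf2, Klf3, Klf4 and Klf6. Only exact matches within these short sequences were sought. The study assigns receptor sites to genes over longer distances and finds many in introns, so sites elsewhere were not examined here. G and C made up 63.3% of the Klf9 sequence, 72.0% for Klf13, 77.7% for Klf11 and 73.3% for Klf15, against a median of 52.7% over all promoters. Klf5 and Klf10 were not matched in the promoter table.

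Total counts were 8.06 to 10.2 M per striatum library and 17.3 to 27 M per WAT library. Hr, a TH target gene that served as control of the response, stood at 38.8 and 57.4 normalised counts in the PTU libraries of striatum and at 245 to 381 after TH, and at 91 to 167 and 1228 to 2738 in WAT. The striatum libraries were not uniform. Xist, which is expressed from the inactive X chromosome, had 22068 to 33691 normalised counts in 6 of 10 libraries labelled male, namely PTU replicate 6, replicate 1 at 12 h and all 4 at 24 h. Ddx3y, a gene of the Y chromosome, had 0 to 1.19 normalised counts at 24 h, against 0 to 254 in the PTU and 0 to 223 in the 12 h libraries. The label male does not match these values at 24 h, and sex type and time are partly confounded in striatum. Replicate 2 at 24 h also had the lowest summed level of 9 striatal projection neuron markers (303 CPM, counts scaled to library size, against 2305 to 6123 in the other libraries) and the highest of 7 cortical excitatory neuron markers (2568 CPM, against 424 to 1651), and Drd2, a defining marker of striatal neurons, had 31.4 normalised counts there. All 4 libraries at 12 h had a higher cortical sum (1039.5 to 1651 CPM) than the PTU libraries (424 and 802) and a lower projection neuron sum (2305 to 3748 against 4026 and 5837), with a median log2 change of 1.09 over the cortical and -0.90 over the projection neuron markers. EdgeR called 0 of both lists at 12 h, against 0.960% of all genes, with 3 cortical and 1 projection neuron marker at an unadjusted p under 0.05. DESeq2 called 1 and 0. Replicate 4 at 24 h resembled the 12 h libraries, with a cortical sum of 1501 and a projection neuron sum of 2835 CPM. Replicates 1 and 3 had cortical sums of 800.4 and 617 CPM and projection neuron sums of 5626 and 6123 CPM. The median log2 change at 24 h was 1.17 over the cortical and -0.37 over the projection neuron markers. At that time edgeR called 0 of both lists, against 0.347% of all genes, and DESeq2 called 1 and 0. In WAT, Adipoq, the adiponectin gene, had at least 32297 normalised counts in every library, but 8 skeletal muscle markers summed to between 42.9 and 23244 CPM and 8 epithelium markers to between 0.938 and 173 CPM.

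All 10 members were detected in both tissues and exceeded the mean of 10 normalised counts that was required for testing (a normalised count is a count scaled to the mean effective library size of its tissue). To compare genes, levels were expressed as CPM per kb of exon. In the PTU libraries of striatum Klf9 stood first, with 43.5 ± 1.24 CPM per kb (SD, n = 2), clear of Klf2 with 10.4 ± 0.567. Klf2, Klf10, Klf6, Klf5 and Klf13 followed, and each overlapped its neighbour in this order. Klf3 and Klf15 (4.25 ± 0.404 and 3.8 ± 0.429) overlapped each other, as did the lowest pair, Klf11 and Klf4 (1.97 ± 0.433 and 1.79 ± 0.0481).

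In the PTU libraries of WAT the order was different. Klf2 stood first with 22.9 ± 8.42 CPM per kb (SD, n = 4), followed by Klf15 with 14.7 ± 2.85, Klf4 with 11 ± 0.832, Klf6 with 11 ± 2.43, Klf9 with 6.7 ± 1.56, Klf10 with 5.12 ± 0.835 and Klf13 with 4.86 ± 0.682, and each of these overlapped the next. Klf3, Klf11 and Klf5 came last and were separate from their neighbours, with Klf5 at 0.106 ± 0.0362 CPM per kb. At 6 h Klf9 had the highest mean of the 10 genes, 25.7 ± 2.25, overlapping Klf15 with 24.1 ± 3.26, and at 24 h it lay below Klf2 with no overlap, with 16.5 ± 3.24 against 28.8 ± 3.3. The tables of the 2 tissues were made separately, so levels were not tested between tissues.

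**Figure D1:**
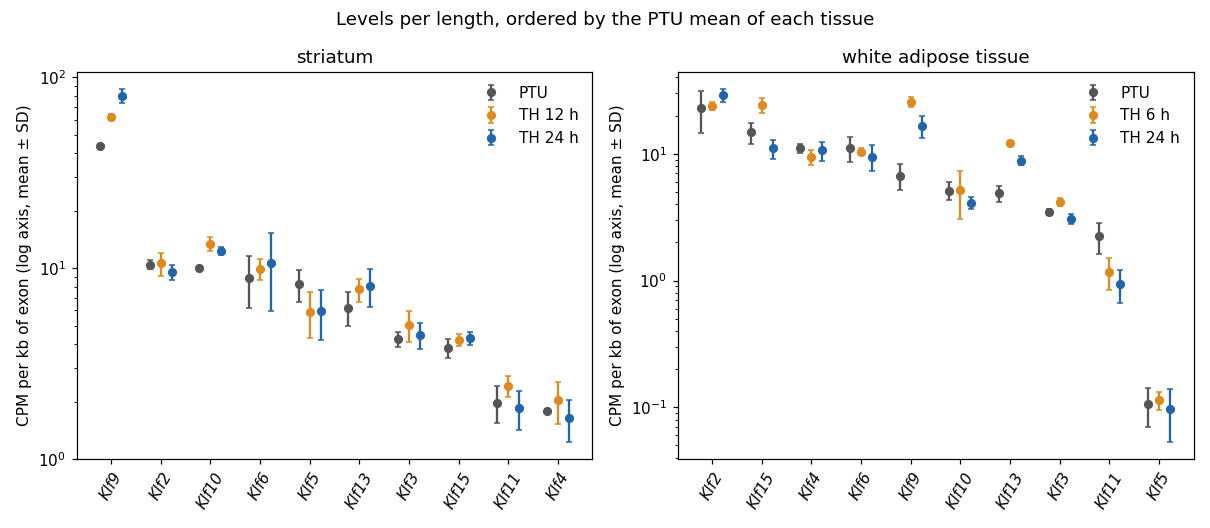
Levels of the 10 genes in CPM per kb of exon (log axis, mean ± SD) by group in striatum (left) and WAT (right), ordered by the PTU mean. Klf9 is first in striatum in all 3 groups, and in WAT it moves from below Klf2, Klf15, Klf4 and Klf6 in the PTU libraries to first at 6 h.

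After TH, 4 of the 10 members were called in WAT at 6 h (edgeR's quasi-likelihood test, Benjamini-Hochberg adjusted p under 0.05 over all genes), against 7.20% of the 17941 genes tested. Klf9, Klf13 and Klf15 rose and Klf11 fell. At 24 h 3 members were called, against 17.1% of all genes, with Klf9 and Klf13 higher and Klf11 lower than in the PTU libraries. Between 6 h and 24 h 4 members fell, Klf9, Klf13, Klf15 and Klf3, against 7.41% of all genes called. In striatum 1 member, Klf9, was called at 12 h and at 24 h, against 0.960% and 0.347% of 15839 genes. The median log2 change of the 10 genes was 0.08 at 6 h and -0.15 at 24 h in WAT (all genes: -0.03 and 0.00), and 0.21 at 12 h and 0.12 at 24 h in striatum (all genes: 0.01 and 0.02). Both times of a tissue share their PTU libraries.

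**Figure D2:**
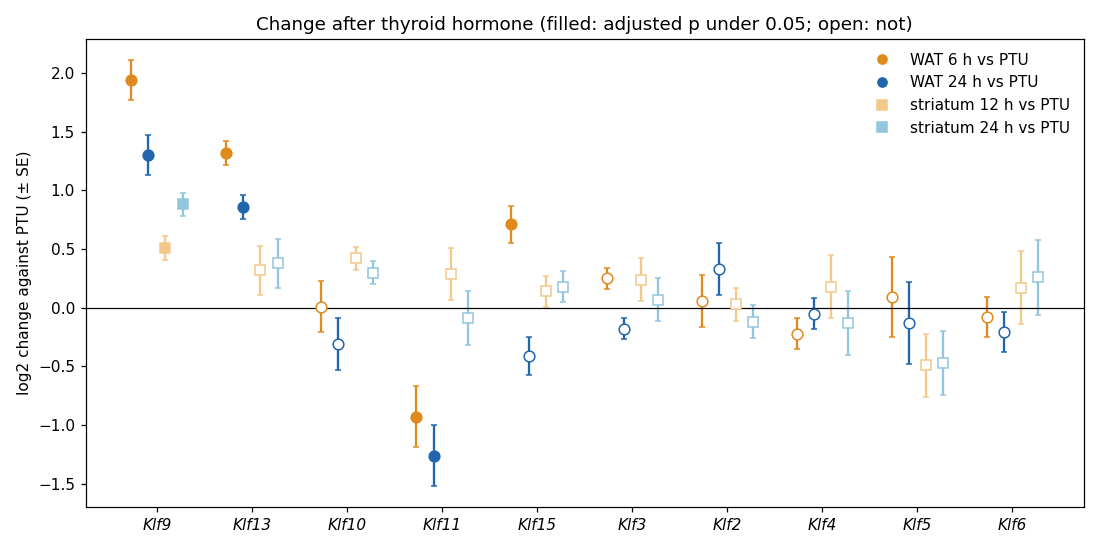
Log2 change against the PTU libraries of the same tissue (± SE) for each gene, with circles for WAT and squares for striatum, filled where the adjusted p was under 0.05. Klf9 lies above 0 in all 4 comparisons, from 0.51 in striatum at 12 h to 1.94 in WAT at 6 h, and Klf11 lies below 0 only in WAT and in striatum at 24 h, the latter open at -0.09.

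Klf9 (chromosome 19, 23141226 to 23168134, plus strand) gave the largest rise of the 10 genes in WAT. Its PTU libraries had 888, 594, 530.5 and 759.8 normalised counts, those at 6 h 2365, 2626, 2738 and 2921, and those at 24 h 1662, 2188, 1505 and 1454. The 3 groups did not overlap, and the 24 h libraries lay between the other groups. The log2 change against PTU was 1.94 ± 0.17 at 6 h (SE, n = 4 against 4, edgeR adjusted p = 4.09e-05) and 1.30 ± 0.17 at 24 h (adjusted p = 0.000364), which are 3.84-fold and 2.46-fold. From 6 h to 24 h it fell by 0.65 ± 0.17 (adjusted p = 0.0366). That decline lost its call in 6 of the 12 fits that left out 1 library each, with an edgeR adjusted p of up to 0.0988. Both rises against PTU were called in all 12. With the epithelium level as a covariate the decline was -0.52 (edgeR adjusted p = 0.317). Epithelium sums did not overlap between 6 h (5.13 to 173 CPM) and 24 h (0.938 to 1.67 CPM). That fit can therefore hardly separate the epithelium level from the time.

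In striatum Klf9 was higher at both times after TH than in the PTU libraries. The 2 PTU libraries had 1932 and 2012 normalised counts, the 12 h libraries 2796, 2862, 2681 and 2893, and the 24 h libraries 3984, 3695, 3528 and 3304. Each group lay above the one before it with no overlap. Against PTU it rose by 0.51 ± 0.10 on the log2 scale at 12 h (SE, n = 4 against 2, edgeR adjusted p = 0.0422) and 0.88 ± 0.10 at 24 h (adjusted p = 0.00979), which are 1.42-fold and 1.84-fold. From 12 h to 24 h it differed by 0.37 ± 0.08, which did not pass (adjusted p = 0.136) in the edgeR fit, in which 0 of 15839 genes (0%) were called for this step, 2313 had an unadjusted p under 0.05 and DESeq2 called 260. Klf9 was the 1 member with an unadjusted p under 0.05 there, and DESeq2 called it (adjusted p = 0.00218).

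Whether Klf9 was called in striatum depended on the fit, while its change varied little between fits. Among the libraries with high Xist Klf9 had 2012 normalised counts without TH, 2796 at 12 h and 3304 to 3984 at 24 h, and among the others 1932 without TH and 2681 to 2893 at 12 h. With high or low Xist as a covariate the changes were 0.51 at 12 h and 0.87 at 24 h (edgeR adjusted p = 0.0755 and 0.0546). No library at 24 h had low Xist. Without PTU replicate 3 the changes were 0.47 and 0.84 (adjusted p = 0.329 and 0.366), and without PTU replicate 6 they were 0.54 and 0.91 (0.232 and 0.116). At both times 0 of all genes were called without replicate 3 and 1 without replicate 6, and in these fits the remaining PTU library was assumed to vary like the other groups. The 12 h call was kept in 2 of the 10 fits that left out 1 library, and the 24 h call in 8. At 12 h it ended when any 1 of the 12 h libraries was left out, and without a filter (edgeR adjusted p = 0.0517). At 24 h it ended with 2 groups alone (edgeR adjusted p = 0.146), where both PTU libraries were kept. Without replicate 2 at 24 h, the library with the highest cortical sum, the changes at 12 h and 24 h were 0.50 and 0.85 (edgeR adjusted p = 0.0157 and 0.00398). Replicate 4 at 24 h, with a cortical sum of 1501 CPM, stayed in that fit. Cortical marker sums were higher and projection neuron sums lower in all 12 h libraries than in the PTU libraries, and with the log2 ratio of these sums as a covariate Klf9 changed by 0.52 and 0.89 (adjusted p = 0.0108 and 0.000281).

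At 24 h, the time sampled in both tissues, the response of Klf9 was 0.43 ± 0.22 log2 units larger in WAT than in striatum, with an interval of -0.02 to 0.87 (2 SE on each side), which did not pass (adjusted p = 0.284, interaction term of an edgeR fit of all 22 libraries). In that test 0 of the 10 members were called and 4 had an unadjusted p under 0.05, Klf10, Klf11, Klf13 and Klf15, while 5.37% of 12778 genes were called, and DESeq2 called 0 members. The response of Hr was larger in WAT by 1.51 ± 0.29 (adjusted p = 0.00413).

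Klf13 (chromosome 7, 63886351 to 63938915, minus strand), the closest relative of Klf9 among the 10 by its SIN3 recruitment and structure, also rose in WAT. The PTU libraries had 630.2, 797, 837 and 884 normalised counts, the 6 h libraries 1835, 1996, 1956 and 2047, and the 24 h libraries 1558, 1481, 1296 and 1376. As for Klf9, the 3 groups did not overlap and the 24 h group lay between the others. On the log2 scale Klf13 rose by 1.32 ± 0.10 at 6 h (SE, edgeR adjusted p = 1.84e-05) and 0.86 ± 0.10 at 24 h (adjusted p = 0.000213), both called in all 12 fits without 1 library. The decline from 6 h to 24 h was -0.46 ± 0.10 (adjusted p = 0.0209), called in 8 of those 12 fits, with an adjusted p of 0.106 with the epithelium covariate and 0.101 with the skeletal muscle covariate.

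In striatum Klf13 was not called. Its PTU libraries had 504 and 378 normalised counts, the 12 h libraries 436, 579, 586 and 594, and the 24 h libraries 433, 743, 528 and 595, so the groups overlapped. The log2 changes were 0.32 ± 0.21 at 12 h (SE, edgeR adjusted p = 0.422, interval -0.10 to 0.73) and 0.38 ± 0.21 at 24 h (adjusted p = 0.604, interval -0.04 to 0.80). The highest library, 743, was the one with the highest cortical sum, and without it the change at 24 h was 0.22 (edgeR adjusted p = 0.777). Over the 12 WAT libraries log2 CPM of Klf13 and Klf9 had a Pearson r of 0.93 (Spearman rho 0.93), and over the 10 striatum libraries an r of 0.40 (rho 0.33), as a description, since libraries of a group share their treatment.

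Klf10 (chromosome 15, 38291463 to 38300706, minus strand), first described as an early gene of TGF-beta signalling, did not pass the test in striatum. The PTU libraries had 402 and 386 normalised counts, the 12 h libraries 494, 559, 569 and 487, and the 24 h libraries 509, 497, 465 and 470.5. All 8 TH libraries lay above both PTU libraries, while those of 12 h and 24 h overlapped. The log2 change was 0.42 ± 0.10 at 12 h (SE, edgeR adjusted p = 0.0668) and 0.30 ± 0.10 at 24 h (adjusted p = 0.336). For 12 h it was called by DESeq2 (adjusted p = 0.0151), in the fit of those 2 groups alone (0.036) and without replicate 2 at 24 h (0.0312). With the ratio of cortical to projection neuron sums, which was higher in the 12 h libraries, as a covariate the change was 0.39 (adjusted p = 0.0514).

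In WAT the Klf10 groups overlapped. The PTU libraries had 364, 524, 514 and 435 normalised counts, the 6 h libraries 405, 317, 738 and 392, and the 24 h libraries 379, 369.5, 316 and 416. The log2 change was 0.01 ± 0.22 at 6 h (edgeR adjusted p = 0.984) and -0.31 ± 0.22 at 24 h (adjusted p = 0.364). The value of 738 stood apart, and without it the change at 6 h was -0.31 (adjusted p = 0.242). That library also had the highest epithelium sum, 173 CPM, and with the epithelium level as a covariate the change was -0.19 (adjusted p = 0.69).

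Klf11 (chromosome 12, 24651274 to 24662789, plus strand), another SIN3-recruiting repressor, fell in WAT. The PTU libraries had 137, 266, 246 and 187 normalised counts, the 6 h libraries 152, 82.9, 90 and 113, and the 24 h libraries 64.6, 91.2, 121 and 71.9. At 6 h 1 library lay within the PTU range, and at 24 h all 4 lay below it. Relative to PTU, Klf11 changed by -0.93 ± 0.26 on the log2 scale at 6 h (SE, edgeR adjusted p = 0.0481) and -1.26 ± 0.26 at 24 h (adjusted p = 0.00674), which is 0.417 of the PTU level. The call at 24 h held in all 12 fits without 1 library, but that at 6 h in 3 of 12, with an adjusted p of up to 0.13 (without PTU replicate 2).

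In striatum Klf11 was low and its groups overlapped, with 93.3 and 68.2 normalised counts without TH, 80.2 to 107 at 12 h and 53.6 to 96.3 at 24 h. The log2 changes there were 0.29 ± 0.22 and -0.09 ± 0.23 (edgeR adjusted p = 0.499 and 0.93). The response at 24 h was 1.16 ± 0.38 log2 units lower in WAT than in striatum, with an interval of -1.92 to -0.39, an unadjusted p of 0.00661 and an edgeR adjusted p of 0.0838. Over the 12 WAT libraries Klf11 and Klf9 had a Pearson r of -0.75 (Spearman rho -0.59), again as a description.

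Klf15 (chromosome 6, 90462576 to 90475238, plus strand) was higher at 6 h and not at 24 h in WAT. The PTU libraries had 853, 1103, 687 and 886 normalised counts, the 6 h libraries 1665, 1194, 1495 and 1427, and the 24 h libraries 552, 819, 669 and 605. The 6 h group lay above both others, while the 24 h group overlapped the PTU group. The log2 change was 0.71 ± 0.16 at 6 h (SE, edgeR adjusted p = 0.018) and -0.41 ± 0.16 at 24 h (adjusted p = 0.0896). The fall from 6 h to 24 h was -1.13 ± 0.16 (adjusted p = 0.0019), the largest of the 10 genes over this step, and no left-out library ended this call. The rise at 6 h was also called in all 12 (adjusted p up to 0.0491) and reached an adjusted p of 0.0533 with the epithelium covariate.

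In striatum Klf15 had 108 and 92 normalised counts without TH, 103 to 122 at 12 h and 101 to 119.9 at 24 h, and these ranges overlapped. Its log2 changes were 0.14 ± 0.13 and 0.18 ± 0.13 (SE, edgeR adjusted p = 0.582 and 0.712). Of 6 genes of amino acid breakdown listed as targets of KLF15, 4 were tested in WAT. EdgeR called 1 higher at 6 h, 1 higher and 2 lower at 24 h, and 1 lower from 6 h to 24 h. Over all genes it called 7.20%, 17.1% and 7.41%. A link of these changes to Klf15 was not tested. Prodh, proline dehydrogenase, rose by 2.24 ± 0.38 on the log2 scale at 6 h (SE, edgeR adjusted p = 0.00393) and by 2.39 ± 0.38 at 24 h (0.00135), and its change between these times was 0.14 ± 0.36 (0.845). Gpt, alanine transaminase, did not pass at 6 h relative to PTU. By 24 h Gpt had changed by -1.10 ± 0.15 relative to PTU (adjusted p = 0.000447). Over the step from 6 h it had changed by -0.69 ± 0.15 (0.0166), and both falls were called. Bckdhb was lower at 24 h than without TH. In striatum 0 of these 4 were called at either time by edgeR or DESeq2, with 0 at 12 h and 1 at 24 h at an unadjusted p under 0.05. Over all genes there, edgeR called 0.960% at 12 h and 0.347% at 24 h.

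Klf3 (chromosome 5, 64803388 to 64832901, plus strand), the CtBP-binding member, passed the test in WAT between the times alone. The PTU libraries had 789.7, 842, 899 and 843 normalised counts, the 6 h libraries 954, 1106, 1004 and 947, and the 24 h libraries 790.1, 663, 798 and 719. The 6 h libraries lay above all others. The log2 change was 0.25 ± 0.09 at 6 h (SE, edgeR adjusted p = 0.0965), -0.18 ± 0.09 at 24 h (adjusted p = 0.162) and -0.43 ± 0.09 from 6 h to 24 h (adjusted p = 0.0123). This last call held whichever of the 12 libraries was left out, with an adjusted p of 0.0829 with the skeletal muscle covariate and 0.0802 with the epithelium covariate. An antisense gene, Gm20033, shares 404 exon bases with Klf3 (3.59% of its exon length). It had at most 13.2 normalised counts in WAT, and with the strand setting of the counting not stated, reads of the shared bases cannot be assigned to either gene.

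In striatum Klf3 had 420.2 and 481 normalised counts without TH, 463 to 672 at 12 h and 363 to 518 at 24 h, with log2 changes of 0.24 ± 0.18 and 0.07 ± 0.18 (edgeR adjusted p = 0.494 and 0.93). The groups overlapped, and the lowest library at 24 h was the one with the highest cortical sum.

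The activators Klf2, Klf4, Klf5 and Klf6 were not called in either tissue at any time. Klf2, known for its role in endothelium and quiescent lymphocytes, had 479 to 1279 normalised counts in the PTU libraries of WAT, 881 to 1033 at 6 h and 1027 to 1327 at 24 h, and its log2 change at 24 h was 0.33 ± 0.22 (edgeR adjusted p = 0.321, interval -0.11 to 0.76). Of 8 endothelium markers in WAT, Cldn5 alone was called, lower at 6 h, against 7.20% of all genes called at that time. Klf4 and Klf6, both known in adipocyte differentiation, had 512 to 831 and 697 to 1279.7 normalised counts over all WAT libraries, with overlapping groups and log2 changes between -0.22 and -0.05 against PTU. Klf5 was low in WAT, with 5.53 to 16.4 normalised counts, so that a change of its level there had a wide interval (-0.83 to 0.58 at 24 h).

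Klf5 was better measured in striatum. It had 348 and 459 normalised counts without TH, 224 to 391 at 12 h and 215 to 372 at 24 h, and its log2 changes of -0.49 ± 0.27 and -0.47 ± 0.27 did not pass (SE, edgeR adjusted p = 0.348 and 0.63). Klf6 ranged from 287 to 715 in striatum, and its highest value was again in the library with the highest cortical sum. Its change at 24 h was 0.26 ± 0.32 with that library and -0.09 without it (adjusted p = 0.821 and 0.937). Klf2 and Klf4 had 147 to 209 and 32.3 to 77.4 normalised counts in striatum, with log2 changes between -0.13 and 0.18 against PTU.

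**Figure D3:**
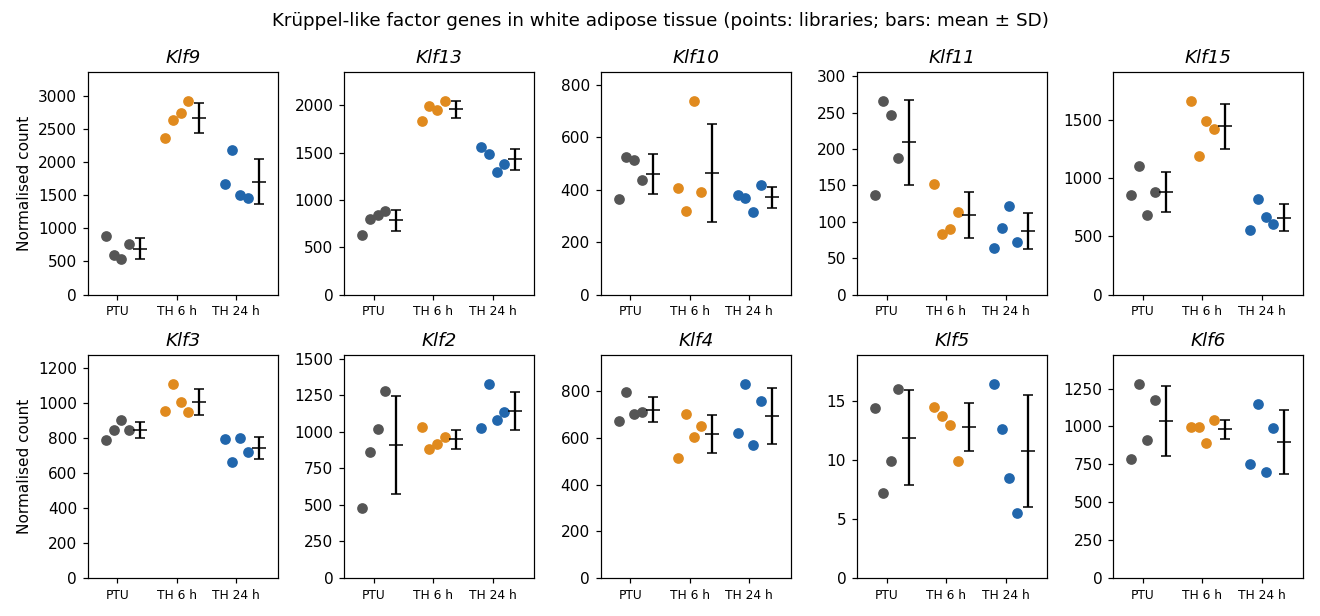
Normalised counts of the 10 genes in each WAT library (points) with the group mean ± SD (bars). Klf9 and Klf13 separate into 3 levels, PTU lowest and 6 h highest, Klf15 is highest at 6 h, and Klf11 is lowest at 24 h.

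**Figure D4:**
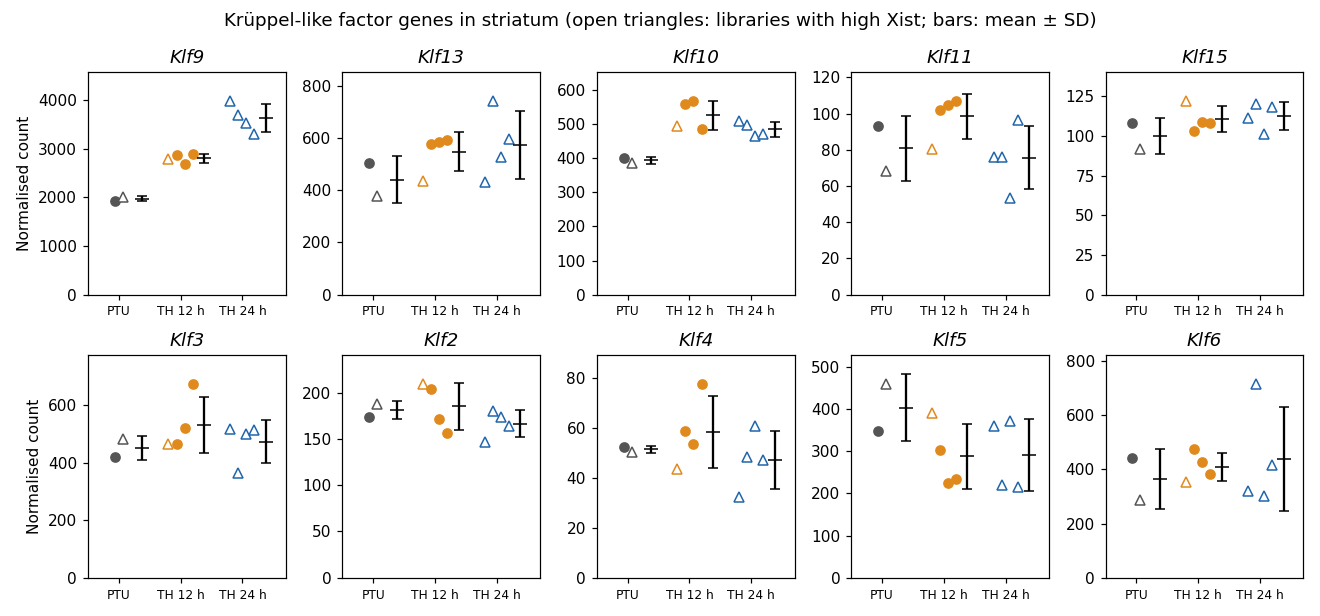
Normalised counts of the 10 genes in each striatum library (open triangles: high Xist, filled circles: low Xist) with the group mean ± SD (bars). Klf9 rises from 1932 and 2012 without TH to 3304 to 3984 at 24 h, and for Klf9 and Klf10 the 8 TH libraries lie above both PTU libraries.

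Other genes of the KLF and SP family mostly did not pass. Of 16 listed, 12 were tested in striatum and 9 in WAT. In WAT, edgeR called 0 of 9 at 6 h (2 at an unadjusted p under 0.05, 0 by DESeq2), and at 24 h Klf16 and Sp1 were lower, with log2 changes of -0.60 ± 0.16 (SE, adjusted p = 0.0196) and -0.33 ± 0.10 (0.0346). These 2 of 9 stand beside 17.1% of all genes called at 24 h. Sp1, a broadly expressed activator that binds GC boxes, was also lower at 24 h than at 6 h (-0.41 ± 0.10, adjusted p = 0.0235). In striatum edgeR called 0 of 12 at 12 h (3 at an unadjusted p under 0.05, 2 by DESeq2) and 0 of 12 at 24 h (1 and 0). It called 0.960% and 0.347% of all 15839 genes there, so 0 of 12 lay near the background. Of 12 cofactors and regulators of KLF proteins, 1 was called in WAT at each time, both higher, against 7.20% of all genes at 6 h and 17.1% at 24 h, so the list did not stand above the background. The called genes were Ep300, an acetyltransferase, at 6 h (0.41 ± 0.10, adjusted p = 0.0303) and Sap30, a subunit of the SIN3 complex, at 24 h (0.71 ± 0.20, adjusted p = 0.028). In striatum 0 of the 12 were called by edgeR or DESeq2, with 1 at 12 h and 0 at 24 h at an unadjusted p under 0.05. That too lay near the 0.960% and 0.347% of all genes called by edgeR.

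Clock genes also changed in WAT at 6 h. Klf9, Klf10 and Klf15 are known as genes with a daily rhythm. Of 12 clock genes, 7 rose and 3 fell at 6 h (median log2 change 1.42), against 7.20% of all genes called. At 24 h 1 rose and 2 fell (median 0.07), near the 17.1% of all genes called. From 6 h to 24 h 4 rose and 7 fell (median -2.24), against 7.41% of all genes called. Dbp, an output gene of the clock, had 52.3 to 241 normalised counts in the PTU libraries, 2285 to 3417 at 6 h and 122 to 199 at 24 h, while Arntl, a core clock gene, had 286 to 666, 70.6 to 112 and 467 to 593. The hour of collection was not given in the sources used here, and its part in the WAT changes of Klf9, Klf13, Klf15 and Klf3 was not tested. In striatum edgeR called 0 of 12 clock genes at 12 h (4 at an unadjusted p under 0.05, 1 by DESeq2) and 0 at 24 h (1 and 0). Over all genes there it called 0.960% and 0.347%.

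Markers of the tissue also moved in WAT. Over all genes, 7.20% were called at 6 h, 17.1% at 24 h and 7.41% from 6 h to 24 h. Of 8 white adipocyte markers 0 were called at 6 h by edgeR (1 at an unadjusted p under 0.05, 1 by DESeq2) and 5 were lower at 24 h, with Adipoq changed by -1.17 ± 0.12 (SE, adjusted p = 8.44e-05). Of 7 brown adipocyte markers 3 were higher at 6 h and 5 at 24 h, with Ucp1, the thermogenic uncoupling protein, at 4.8 to 268 normalised counts without TH, 1641 to 3942 at 6 h and 2877 to 12353 at 24 h. Summed white adipocyte markers ran from 19489 to 24558 CPM without TH, 16589 to 19767 at 6 h and 12287 to 17138 at 24 h, and summed brown adipocyte markers from 80.2 to 145, 239 to 462 and 356 to 1029. The 8 epithelium markers summed to 1.23 to 37.2 CPM without TH, 5.13 to 173 at 6 h and 0.938 to 1.67 at 24 h. EdgeR called 4 lower at 24 h than at 6 h. Against PTU it called 0 at 6 h (3 at an unadjusted p under 0.05, 1 by DESeq2). At 24 h it called 2 lower than PTU (5 and 3). The 8 skeletal muscle markers summed to 94.3 to 23244, 42.9 to 4313 and 1699.7 to 12492 CPM, and 0 were called by edgeR or DESeq2 or had an unadjusted p under 0.05 at either time. Of 10 glucocorticoid response genes 1 was called at 6 h and 2 at 24 h, all higher, near the 7.20% and 17.1% of all genes called. The part of these levels in the changes of the members was not tested beyond the covariate fits given above. For the step from 6 h to 24 h, the epithelium fit can hardly separate the epithelium level from the time, for any member.

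The genes most like Klf9 were sought by Pearson r of log2(CPM + 1) over the libraries of a tissue, as a description. In WAT these were Ifrd2 (r = 0.976), Dusp18 (0.975) and Cntfr (0.963) among 17931 genes over 12 libraries. Dusp18 had 88.4 to 202 normalised counts without TH, 594 to 929.7 at 6 h and 334 to 549 at 24 h. Genes chosen by this correlation share the group pattern of Klf9 through the choice itself. In striatum they were Hccs (0.958), Ldlrad4 (0.955) and Adam10 (0.954) among 15829 genes over 10 libraries, and Hccs had 425 to 485, 555 to 624 and 616 to 770.1 normalised counts in the PTU, 12 h and 24 h libraries. Hr had an r of 0.831 with Klf9 in WAT (Spearman rho 0.427) and of 0.862 in striatum (rho 0.648). In WAT it was higher at 24 h than at 6 h (0.63 ± 0.16 on the log2 scale, SE, edgeR adjusted p = 0.0373), where Klf9 was lower.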

How the data were processed

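The authors made RNA-seq libraries from 10 striatum and 12 WAT samples (Lexogen SENSE chemistry, NextSeq 500). The authors deposited raw counts, 1 table per tissue. Their methods state alignment to GRCm38 with Bowtie (Bowtie2 2.2.6.2 in the submitters' processing notes), removal of low-quality alignments and counting with htseqcount. The annotation release and strand setting are not given in the sources used here, and 87 rows of the WAT table repeat another row's counts to within 2%, none of them a member.

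The quasi-likelihood F test of edgeR 4.0.16 (R 4.3.3) was run on these counts, two-sided, with TMM factors and all 3 groups of a tissue in 1 model. A gene entered the test if its normalised counts averaged over 10, and was called at a Benjamini-Hochberg adjusted p under 0.05 over every gene of the fit, with no minimum fold change. SE is the log2 change divided by the square root of F. The tissue difference was an interaction in 1 fit of all 22 libraries over genes on 1 row of both tables. DESeq2 1.42.0 was an alternative, as were RLE size factors, no filter, 2 groups alone and a replicate block. Each library was left out in turn, and so were the repeated rows. The Xist covariate was high or low Xist, with high meaning over 1000 normalised counts. The cortical covariate was the log2 ratio of cortical to projection neuron sums. The muscle and epithelium covariates were the levels of those markers. The scripts were tested on simulated data.

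Lengths and coordinates are from a GENCODE annotation of GRCm38, and promoters from RefSeq. All 10 members are named, as are Hr, called KLF and SP relatives, defining markers and the 3 genes most correlated with Klf9 in each tissue. Klf7, Klf12, Ep300, Sap30, Prodh, Gpt, Bckdhb, Dbp, Arntl, Cldn5 and Ddx3y were named after their values were seen. Members and lists were chosen with earlier results of these data known. Nothing states that libraries came from separate animals, so p-values measure only the spread between samples, which may be technical. Libraries with the same replicate number had residual correlations of -0.427 to 0.293 in striatum (6 pairs) and -0.489 to 0.442 in WAT (12 pairs). Pairs with different numbers were not compared, so these values cannot settle whether the numbers mark a shared animal or batch. No 2 libraries of a group agreed within counting noise (chi-square per degree of freedom of at least 3.46 and 9.85).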

Additional observations from a re-analysis of the deposited data

Results flagged for a closer look

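In 50 gene-by-group sets of 4 libraries, 2 had a single library far from the other 3. Chance gives this in about 1 of 20 such sets. Klf13 in striatum at 12 h had 436 normalised counts in replicate 1, against 579 to 594 in the other 3, and this was the 12 h library with high Xist. Klf3 in striatum at 24 h had 363 in replicate 2, the library with the highest cortical sum, against 498 to 518.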

How the results depend on the processing

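Across 7 counts of called members and 135 alternatives, 106 counts stayed within 1.5 times the reported one. In striatum at 12 h the reported 1 became 2 with DESeq2 and with 2 groups alone, 0 without a filter and with the Xist covariate, and 0 to 2 without 1 library. At 24 h the reported 1 became 0 with 2 groups alone and with the Xist covariate, and 0 to 1 without 1 library. From 12 h to 24 h the reported 0 became 1 with DESeq2 and with the cortical covariate. In WAT from 6 h to 24 h the reported 4 became 2 with the replicate block, 2 with the muscle covariate, 1 with the epithelium covariate and 2 to 4 without 1 library. At 6 h the 4 became 2 with the epithelium covariate. For the difference between tissues the reported 0 became 1 at most without 1 library, Klf11 in both cases. The cause was not tested.

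The replicate block ended the calls of Klf11 at 6 h (-0.89, adjusted p = 0.111) and of Klf9 (-0.66, 0.0687) and Klf13 (-0.45, 0.052) from 6 h to 24 h in WAT, and changed no other call of a member. In striatum it left 0 calls from 12 h to 24 h and could not be fitted against PTU, whose numbers are 3 and 6. RLE size factors and leaving out the repeated rows of the WAT table changed no count of members. Over all genes the calls varied more. For striatum at 12 h the 152 calls became 841 with DESeq2, 306 without a filter, 1458 with 2 groups alone, 60 with the Xist covariate and 729 with the cortical covariate, and the 55 at 24 h became 201, 104, 0, 3 and 325. The 0 calls from 12 h to 24 h became 260 with DESeq2, 41 without a filter, 7 with the replicate block and 817 with the cortical covariate. In WAT the 1291 calls at 6 h became 2087 with DESeq2, 833 with 2 groups alone and 667 with the epithelium covariate, the 3066 at 24 h became 2038 with 2 groups alone, and the 1329 from 6 h to 24 h became 2074, 2441 and 243, 463 with the muscle covariate and 776 with the replicate block. The 686 calls between tissues became 423 without a filter and 242 with 2 groups alone. Without 1 library the calls over all genes ran from 0 to 1262 in striatum at 12 h, 0 to 115 at 24 h and 0 to 105 from 12 h to 24 h, with 0 in each without PTU replicate 3 and the highest without replicate 2 at 24 h. In WAT they ran from 685 (without 6 h replicate 3) to 1901 at 6 h, 1952 (without PTU replicate 2) to 4272 at 24 h and 661 (without 6 h replicate 2) to 2040 from 6 h to 24 h, and between tissues from 216 (without striatum PTU replicate 6) to 1086, each highest without WAT PTU replicate 1.

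Of 70 pairs of member and comparison, 22 had an unadjusted p under 0.05, and none of these reversed in 445 alternatives (392 kept their call or lack of one). Of the other 48, 20 changed sign in some alternative without being called in any. For striatum 12 h against PTU, the log2 change without 1 library ran from -0.04 to 0.10 for Klf2 and -0.12 to 0.51 for Klf6. For striatum 24 h against PTU, the log2 change without 1 library ran from -0.28 to 0.01 for Klf4, -0.09 to 0.60 for Klf6, -0.04 to 0.17 for Klf3 and -0.30 to 0.14 for Klf11. For striatum 24 h against 12 h, the log2 change without 1 library ran from -0.12 to 0.19 for Klf5, -0.25 to 0.24 for Klf6, -0.10 to 0.18 for Klf13 and -0.01 to 0.08 for Klf15. For WAT 6 h against PTU, the log2 change without 1 library ran from -0.14 to 0.29 for Klf2, -0.07 to 0.28 for Klf5, -0.18 to 0.04 for Klf6 and -0.31 to 0.15 for Klf10. For WAT 24 h against PTU, the log2 change without 1 library ran from -0.14 to 0.04 for Klf4 and -0.40 to 0.08 for Klf5. For the difference between tissues, the log2 change without 1 library ran from -0.05 to 0.24 for Klf4. With the epithelium covariate it changed sign to 0.10 for Klf10 (WAT 24 h against 6 h), -0.19 for Klf10 (WAT 6 h against PTU), -0.04 for Klf4 (WAT 24 h against 6 h), 0.08 for Klf5 (WAT 24 h against 6 h), 0.08 for Klf5 (WAT 24 h against PTU) and 0.04 for Klf6 (WAT 6 h against PTU). With the replicate block it changed sign to -0.03 for Klf10 (WAT 6 h against PTU). With the Xist covariate it changed sign to 0.13 for Klf11 (striatum 24 h against PTU), 0.03 for Klf4 (striatum 24 h against PTU) and -0.36 for Klf5 (striatum 24 h against 12 h). With the cortical covariate it changed sign to -0.03 for Klf5 (striatum 24 h against 12 h), -0.26 for Klf6 (striatum 12 h against PTU) and -0.23 for Klf6 (striatum 24 h against PTU).

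Klf5 had 5.53 to 16.4 normalised counts in WAT, which left wide intervals, and in striatum the 2 PTU libraries limited all comparisons with PTU.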
